A study of Mus musculus with 1 sample.

Results

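The genes described here are 10 signalling genes that recruit and maintain macrophages, chosen by symbol from the gene list of the data: 5 ligands (*Csf1*, *Il34*, *Cx3cl1*, *Ccl2* and *Cxcl12*) and 5 receptors (*Csf1r*, *Cx3cr1*, *Ccr2*, *Cxcr4* and *Ackr3*). Each matched 1 entry, which makes 10 of the 32285 genes measured. They were followed across the cell classes of 1 droplet-based single-cell RNA library from the adrenal medulla of wild-type mice at postnatal day 15, made to catalogue the cells of the postnatal medulla. Adrenals from 5 mice of mixed sex (10 glands) were pooled, fat and most of the cortex were removed by hand, the tissue was digested with enzymes, and 10000 viable cells were used. No animal was treated.

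Transcripts were captured by their poly(A) tails and labelled with the barcode of the droplet and a molecular identifier (UMI), and distinct UMIs were counted for each gene and cell. The library held 51421499 UMIs in 11214 barcodes, with 500 to 33809 UMIs per barcode. After filtering, 10139 cells remained, of which 9308 fell in 8 classes named from marker genes and 831 (8.2%) in clusters with markers of more than 1 cell type, which were left out. The classes were cortex-like (3715 cells), chromaffin-like (2193), endothelial-like (2150), macrophage-like (515), transitioning-like (414, between the sustentacular and chromaffin cells), sustentacular-like (179), other immune-like (97) and fibroblast-like (45). Although the tissue is labelled medulla, cortex-like cells were the most numerous, at 36.6% of the cells that passed. Levels are UMIs of a gene per 1000000 UMIs of the class (CPM), with exact 95% Poisson intervals in brackets. Ratios have exact conditional intervals, which stand after a semicolon where a level is given in the same bracket, shares of cells exact Clopper-Pearson intervals, and all intervals cover counting error only. With 1 pooled library there were no replicates and no test between animals was possible, so the values describe these cells.

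CSF1 and IL-34 are unrelated cytokines that act through the same receptor tyrosine kinase, CSF1R, on which most tissue macrophages depend for survival and proliferation. Chemokines are small secreted proteins that steer cells through G protein-coupled receptors: fractalkine (*Cx3cl1*) is anchored in the membrane and binds CX3CR1 on resident macrophages, CCL2 draws CCR2-bearing monocytes from the blood, and CXCL12 holds or attracts CXCR4-bearing cells, while ACKR3 takes up CXCL12 without G protein signalling.

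The 3 chemokine families represented are named for the spacing of the first conserved cysteines, and the stretches below are shown because that spacing is what places each ligand in a separate family. They were read from the GENCODE vM21 coding transcripts on GRCm38, 5′ to 3′ on the plus strand, with the cysteine codons in capitals.

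*Ccl2*, CC, chr11:82036494-82036523: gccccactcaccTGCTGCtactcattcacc
*Cxcl12*, CXC, chr6:117171499-117171525: agctaccgaTGCcccTGCcggttcttc
*Cx3cl1*, CX3C, chr8:94778045-94778071: acgaaaTGCgaaatcatgTGCgacaag

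All 3 stretches lie in the second exon of the gene, within coding sequence. The cysteine codons are adjacent in *Ccl2*, 1 codon apart in *Cxcl12* and 3 codons apart in *Cx3cl1*. The ligand genes sit apart in the genome except that *Il34* (chr8:110741829-110805924, minus strand) and *Cx3cl1* (chr8:94772009-94782427, plus strand) share a chromosome. *Csf1* lies at chr3:107741048-107760469 on the minus strand, *Ccl2* at chr11:82035571-82037453 and *Cxcl12* at chr6:117168535-117181367, both on the plus strand. Among the receptors, *Cxcr4* (chr1:128588199-128592293, minus strand) and *Ackr3* (chr1:90203980-90216751, plus strand) share chromosome 1, and *Ccr2* (chr9:124101950-124113557, plus strand) and *Cx3cr1* (chr9:119901616-120069879, minus strand) share chromosome 9. *Csf1r* is at chr18:61100598-61132149 on the plus strand. All 10 are protein-coding. The annotated span of *Cx3cr1* covers the protein-coding genes *Gorasp1*, *Csrnp1* and *Xirp1* on the same strand, and *Csf1r* overlaps *Hmgxb3* on the opposite strand. Of the stretches of 31 bases in the transcripts, 3.41% of those of *Ccr2* also occur in other genes, and 1.75% of those of *Cx3cr1*. For the other 8 genes the share was at most 0.38%.

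The 10 genes were unevenly distributed over the cell classes, and some ligands and receptors shared a class. Of the 10 genes, 4 (*Csf1r*, *Cx3cr1*, *Ccl2* and *Cxcr4*) were at least 4-fold higher in macrophage-like cells than in all other named cells, with 10 CPM added to both sides, where 2.4% of the 18589 genes tested passed that limit. In the other immune-like cells 4 genes passed (*Csf1r*, *Cx3cr1*, *Ccr2* and *Cxcr4*, against 2.49% of all genes). In sustentacular-like cells 2 passed (*Il34* and *Cxcl12*, against 2.16%), and in fibroblast-like cells 3 passed (*Il34*, *Cx3cl1* and *Cxcl12*, against 2.52%). None of the 10 passed in chromaffin-like (1.81% of all genes), transitioning-like (0.888%), cortex-like (1.26%) or endothelial-like cells (2.43%), where *Csf1* was 7.17-fold higher before the 10 CPM were added. In the first 3 of these classes the highest levels were 7.59, 13.0 and 14.5 CPM, too low to reach the limit with 10 CPM added. Their absence there is therefore not a lack of difference: *Ackr3* was 5.49-fold higher in cortex-like cells before the 10 CPM were added.

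**Figure D1:**
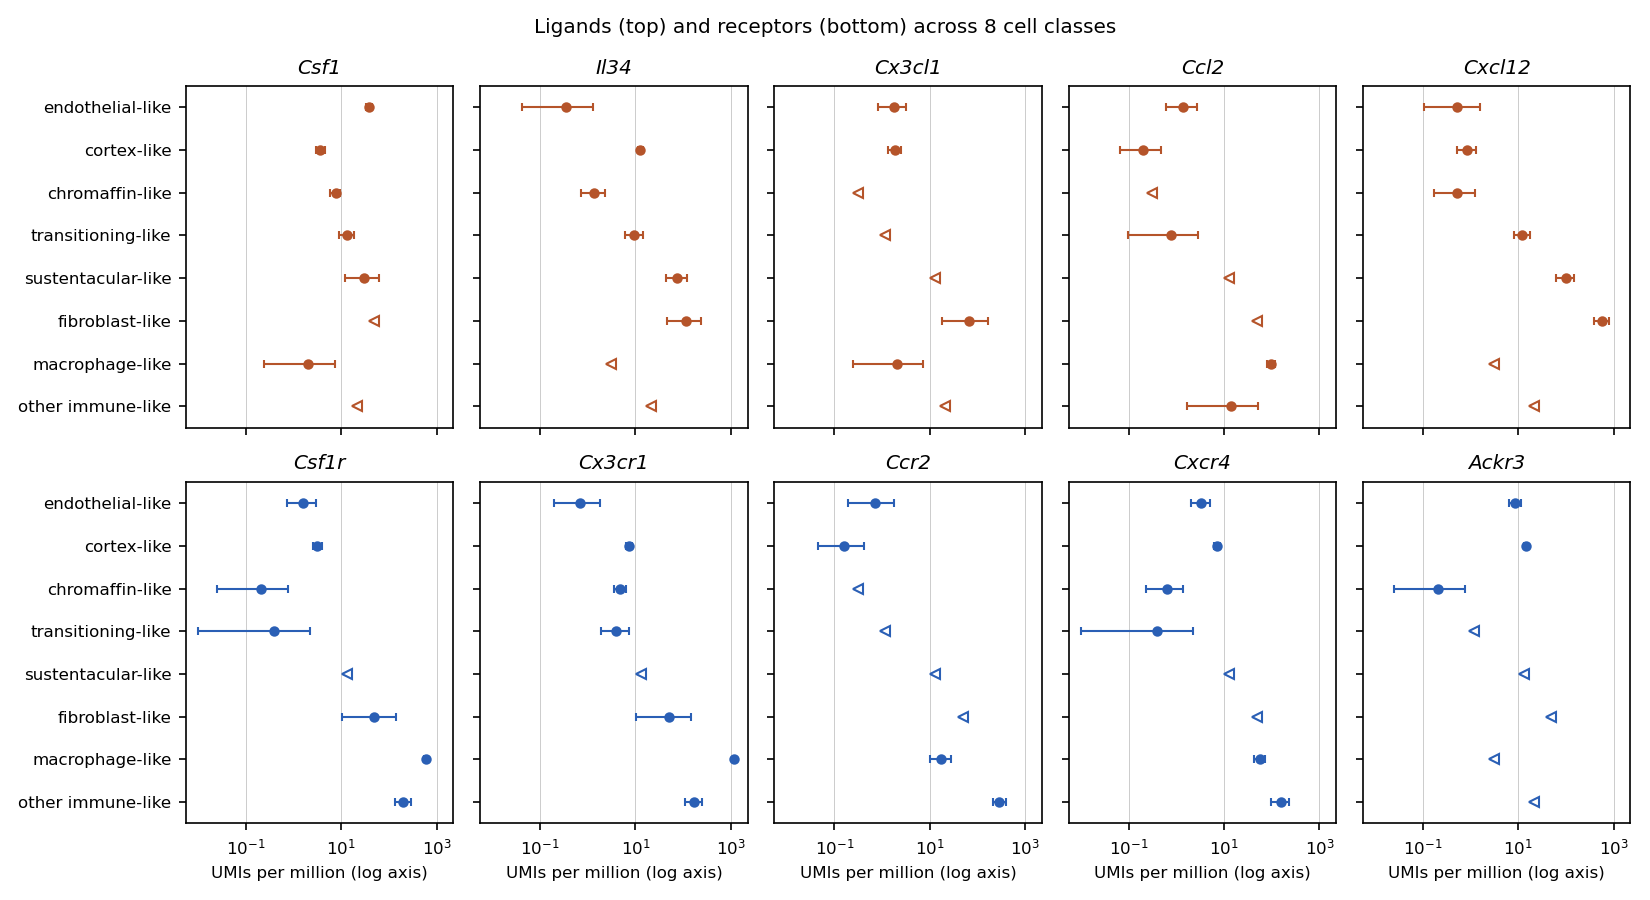
Level of the 5 ligands (top row) and 5 receptors (bottom row) in 8 cell classes, in CPM on a log axis. Points are levels with exact 95% Poisson intervals, and open triangles mark the limit that 0 UMIs allow (3 counts of the class total). The receptor *Csf1r* sits at 590 in macrophage-like cells and at 3.18 or below in the cortex-like, endothelial-like, chromaffin-like and transitioning-like cells, while its ligand *Csf1* is at 38.5 in endothelial-like and 2.03 in macrophage-like cells.

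*Csf1*, the principal macrophage growth factor, was an endothelial transcript in this tissue. Endothelial-like cells held 220 of its 425 UMIs in named cells (51.8%) at 38.5 CPM (33.6 to 44.0), against 5.38 CPM in all other named cells, a ratio of 7.17 (5.9 to 8.71). Macrophage-like cells, which carry the receptor, held 2 *Csf1* UMIs in 515 cells, or 2.03 CPM (0.246 to 7.35). The endothelial level was 18.9-fold that of the macrophage-like cells (5.18 to 157).

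Among the endothelial clusters *Csf1* stood at 42.3 CPM in the main cluster and 35.8 CPM in the cycling cluster, which were not separated (ratio 1.18, 0.877 to 1.6). The *Mgp*-high endothelial cluster was lower, at 18.1 CPM from 7 UMIs, 2.33-fold below the main cluster (1.1 to 5.9). A UMI of *Csf1* was found in 8.7% of endothelial-like cells at a median depth of 2005.5 UMIs, and in 0.388% of macrophage-like cells at 1662 UMIs. Thinned to 1000 UMIs, the endothelial share was 3.59%.

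Outside the endothelium *Csf1* was also present in the medulla and in the *Wnt4*-high cluster of the cortex. Sustentacular-like cells, the glia-like support cells of the medulla, had 7 UMIs (30.3 CPM, 12.2 to 62.4), which was not separated from the endothelial level (endothelial over sustentacular 1.27, 0.607 to 3.2) and was 3.99-fold that of the chromaffin-like cells (1.55 to 8.65). Transitioning-like cells stood at 13.0 CPM and chromaffin-like cells, the catecholamine-secreting cells, at 7.59 CPM. No *Csf1* UMI was found in the fibroblast-like cells, whose few UMIs allow up to 49.3 CPM, above the endothelial level of 38.5 CPM. In the cortex the *Wnt4*-high cluster held 58 UMIs at 12 CPM, 8.92-fold above the *Akr1c18*-high cluster (4.91 to 17.3) and 6.35-fold above the *Cyp11b1*-high cluster (3.3 to 13.4). All 9 endothelial markers had UMIs in the *Wnt4*-high cluster, at a summed 1051 CPM, against 34.5 CPM in the *Cyp11b1*-high cluster, a lower value in the *Akr1c18*-high cluster and 8276 CPM in the main endothelial cluster, and *Kdr* and *Egfl7* were found in 33.1% and 32.1% of its cells. Their part in its *Csf1* level was not tested. *Wnt4* marks outer cortical cells, *Cyp11b1* encodes the enzyme that completes corticosterone synthesis, and *Akr1c18* is a marker of the X-zone next to the medulla.

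*Il34*, the other CSF1R ligand, had a different distribution. Of its 376 UMIs, 313 (83.2%) lay in cortex-like cells and 2 (0.532%) in endothelial-like cells, both in a single cell. Within the cortex the *Akr1c18*-high cluster held 248 UMIs (66.0% of all) at 23.8 CPM (20.9 to 26.9), the *Cyp11b1*-high cluster 25 UMIs at 4.29 CPM, and the *Wnt4*-high cluster 2 UMIs at 0.413 CPM. The *Akr1c18*-high level was 5.54-fold the *Cyp11b1*-high level (3.67 to 8.73) and 57.6-fold the *Wnt4*-high level (15.8 to 478). The cycling cortex-like cluster stood between them at 11 CPM.

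Per unit of RNA, *Il34* was higher in small stromal and glial classes than in the cortex. Sustentacular-like cells had 17 UMIs in 14 of 179 cells, a level of 73.6 CPM (42.9 to 118), 3.09-fold that of the *Akr1c18*-high cortex (1.77 to 5.06) and 7.77-fold that of transitioning-like cells (3.92 to 15.1). Transitioning-like cells in turn exceeded chromaffin-like cells 7.01-fold (3.43 to 15.0). The level thus fell in steps from sustentacular-like (73.6) through transitioning-like (9.47) to chromaffin-like cells (1.35 CPM). Transitioning-like cells were named for markers of both of the other classes, so their intermediate level is not independent of the naming. An *Il34* UMI was found in 20 of the 414 transitioning-like cells, at a median depth of 5180.5 UMIs against 1149 in sustentacular-like cells. The fibroblast-like cells had 7 UMIs in 7 of 45 cells (115 CPM, 46.3 to 237), not separated from the sustentacular-like level (ratio 1.57, 0.549 to 3.97). No *Il34* UMI was found in the macrophage-like cells, which allows a level of up to 3.05 CPM. The ratio of the *Akr1c18*-high level to theirs had a lower limit of 6.29.

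The receptor *Csf1r* was concentrated in macrophages. Macrophage-like cells held 580 of its 701 UMIs (82.7%) at 590 CPM (543 to 640), against 2.82 CPM in all other named cells, a ratio of 209 (172 to 256). Of these cells 62.7% had at least 1 *Csf1r* UMI, compared with 0.372% of endothelial-like cells, and 45.7% had one after thinning to 1000 UMIs. The class with most of the receptor thus had 2 UMIs of *Csf1* and none of *Il34*.

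*Csf1r* varied little among the macrophage-like clusters and was lower in the other immune clusters. The *Ms4a7*-high and *Mcm5*-high macrophage-like clusters both stood at 643 CPM, the MHC class II-high cluster at 534 CPM and the cycling cluster at 430 CPM, and no neighbours among these 4 were separated by their intervals, while the *Ms4a7*-high level exceeded the cycling level 1.5-fold (1.14 to 1.99). The *S100a8*-high immune-like cluster, which expressed *Plac8* in 84.2% of its 57 cells but too few monocyte markers to be named, was mixed: *S100a8*, for which it is called, was found in 14.0% of its cells at 9579 CPM, and the B cell genes *Ighm* and *Cd79a* in 15.8% and 8.77%. It had 26 *Csf1r* UMIs (304 CPM, 199 to 446), and the macrophage-like level was 1.94-fold higher (1.31 to 3.0). The T or NK-like cluster held 2 UMIs.

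A low level of *Csf1r* was also seen in the *Cyp11b1*-high cortex: 53 UMIs in 48 of 907 cells, or 9.09 CPM (6.81 to 11.9). This was 19-fold the level of the *Akr1c18*-high cortex (5 UMIs, 0.479 CPM; 7.64 to 60.8) and 2.45-fold that of the *Wnt4*-high cortex (1.41 to 4.44), and 64.9-fold below the macrophage-like cells. To set this against RNA released by macrophages, the UMIs were compared with those of *C1qa*, *C1qb* and *C1qc*, complement genes that are among the strongest macrophage transcripts. Macrophage-like cells had 3.13 *Csf1r* UMIs per 100 C1q UMIs (2.87 to 3.4), the *Akr1c18*-high cortex 7.25 (2.28 to 17.7) and the *Cyp11b1*-high cortex 126 (82.6 to 194). None of the 48 *Csf1r*-positive cells of that cluster had a *C1qa* UMI, and all 11 macrophage markers had some UMIs in it (summed level 16.8 CPM, against 17.3 CPM in the *Akr1c18*-high cortex and 30192 CPM in macrophage-like cells). *C1qa* was found in only 0.992% of all cells of the cluster, so that few such cells could occur among 48. The source of these *Csf1r* UMIs was not tested.

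**Figure D2:**
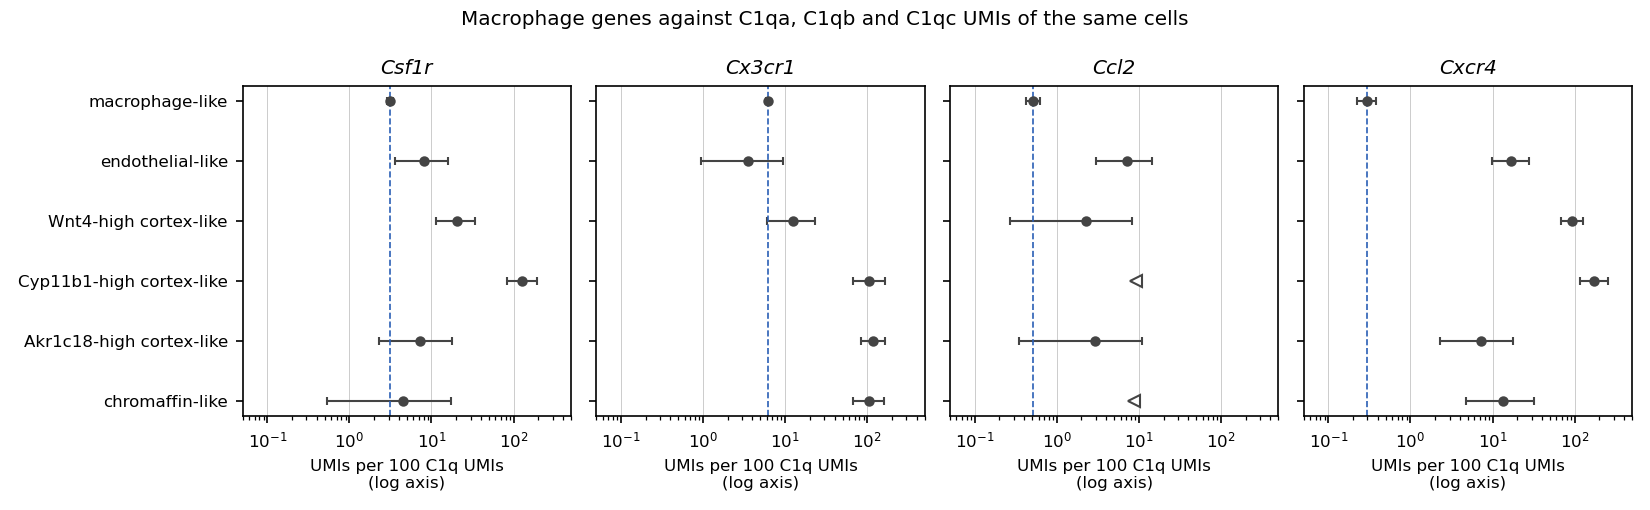
UMIs of *Csf1r*, *Cx3cr1*, *Ccl2* and *Cxcr4* per 100 UMIs of *C1qa*, *C1qb* and *C1qc* in the same class, on a log axis, with exact 95% conditional intervals; open triangles mark the upper bound where the gene had 0 UMIs, and the dashed line the ratio in macrophage-like cells. *Csf1r* in the *Cyp11b1*-high cortex (126) and *Cx3cr1* in the *Cyp11b1*-high (105) and *Akr1c18*-high cortex (117) and chromaffin-like cells (105) lie far above the macrophage ratios of 3.13 and 6.23.

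Other genes of the colony-stimulating factor family were measured beside *Csf1r*. Of 10 such genes, 2 passed the 4-fold limit in macrophage-like cells, against 2.4% of all genes. Both are receptor chains, *Csf2ra* (141 CPM) and *Csf2rb* (65.1 CPM), which together bind GM-CSF. The same 2 passed in other immune-like cells, against 2.49% of all genes. *Ptprz1*, a receptor phosphatase that also binds IL-34, was highest in sustentacular-like cells at 922 CPM (802 to 1054), 19.9-fold above all other cells, and stood at 219 CPM in transitioning-like cells (5.63-fold). *Sdc1*, a syndecan to which IL-34 can also bind, passed in fibroblast-like cells on 5 UMIs (82.2 CPM). *Kitl*, the ligand of the related receptor KIT, was at 120 CPM in endothelial-like and 40.5 CPM in cortex-like cells and passed in no class. Among transcription factors of the macrophage lineage, *Maf* (624 CPM), *Spi1* (374 CPM) and *Runx1* (305 CPM) passed in macrophage-like cells. *Spi1* and *Runx1* also passed in other immune-like cells, and *Maf* in endothelial-like cells at 394 CPM. *Irf8* and *Cebpb* passed in no class.

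Fractalkine (*Cx3cl1*) was rare. It had 61 UMIs in named cells, of which 39 (63.9%) lay in the *Wnt4*-high cortex, in 34 of 755 cells, at 8.05 CPM (5.72 to 11). This was 11.7-fold the level of the *Cyp11b1*-high cortex (4.23 to 45.2), 84.0-fold that of the *Akr1c18*-high cortex, where 1 UMI was found (14.2 to 3401), and 4.6-fold that of endothelial-like cells (10 UMIs, 1.75 CPM; 2.25 to 10.3). No *Cx3cl1* UMI was found among the 9620598 UMIs of the chromaffin-like cells, a neuroendocrine class, which allows up to 0.312 CPM, so that the *Wnt4*-high level was at least 25.8-fold higher.

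The fibroblast-like cells had 4 *Cx3cl1* UMIs in 4 of 45 cells (65.8 CPM, 17.9 to 168), 8.17-fold above the *Wnt4*-high cortex (2.12 to 22.7). The macrophage-like cells had 2 UMIs (2.03 CPM, 0.246 to 7.35), which was not separated from the other cells (ratio 1.48, 0.175 to 5.58). The summed immediate-early genes, which respond within minutes to stress and dissociation, stood at 5924 CPM in the *Wnt4*-high cortex against 1435 CPM in the *Cyp11b1*-high and 875 CPM in the *Akr1c18*-high cortex. Their part in the levels of *Cx3cl1*, *Csf1* and *Cxcr4* in the *Wnt4*-high cortex was not tested.

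The fractalkine receptor *Cx3cr1* was the most abundant of the 10 genes in UMIs and lay with *Csf1r*. Macrophage-like cells held 1156 of its 1424 UMIs (81.2%) at 1176 CPM (1109 to 1246), against 6.25 CPM elsewhere, a ratio of 188 (165 to 216). A UMI was found in 78.1% of macrophage-like and 0.186% of endothelial-like cells. Both receptors were detected together in 258 macrophage-like cells, or 79.9% of those with *Csf1r*, and *Cx3cr1* was found in 75.0% of those without *Csf1r*. Thinned to 1000 UMIs these shares were 62.2% and 60.1%.

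*Cx3cr1* also differed among the macrophage-like clusters. It was highest in the *Ms4a7*-high cluster, at 1486 CPM (1370 to 1610), followed by the *Mcm5*-high cluster at 1099 CPM, and the MHC class II-high and cycling clusters at 854 CPM each. The *Ms4a7*-high level was 1.74-fold the MHC class II-high level (1.46 to 2.09), where the corresponding ratio for *Csf1r* was 1.21 (0.95 to 1.54); the difference between these ratios was not tested. The *Ms4a7*-high cluster also had the highest levels of *Mrc1* (826 CPM) and *Cd163* (537 CPM), scavenger receptors of resident macrophages. These are part of a longer list of resident macrophage markers. Of that list, *Cbr2* stood at 150 CPM in the *Ms4a7*-high and 114 CPM in the *Mcm5*-high cluster, in 18.3% and 21.4% of cells. Levels of its *Folr2*, *Lyve1* and *Timd4* in these clusters are not reported here. In the *S100a8*-high immune-like cluster *Cx3cr1* was 5.29-fold lower than in macrophage-like cells (222 CPM; 3.37 to 8.82).

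*Cx3cr1* UMIs were also found in cortex-like (181 UMIs) and chromaffin-like cells (46 UMIs), at a higher level than in endothelial-like cells (4 UMIs, 0.7 CPM). The *Akr1c18*-high cortex stood at 7.76 CPM, 11.1-fold above the endothelial-like cells (4.17 to 41.7), the cycling cortex-like cluster at 13.0 CPM, and the adrenaline chromaffin-like cluster at 3.94 CPM, 5.62-fold above (1.98 to 22.0). These UMIs were unevenly shared among cells: the 46 UMIs of the chromaffin-like cells lay in 23 cells with up to 8 each, and the 45 UMIs of the cycling cortex-like cluster in 23 cells with up to 13 each, whereas the 4 UMIs of the endothelial-like cells lay in 4 cells. No *C1qa* UMI was found in any of the 23 *Cx3cr1*-positive chromaffin-like cells, and 2 of the 57 positive cells of the *Akr1c18*-high cortex had one. Over all cells of these groups *C1qa* was found in 0.638% and 0.768%, so that few such cells could occur by number alone. *Cx3cr1* UMIs per 100 C1q UMIs were 6.23 in macrophage-like cells (5.87 to 6.61), 117 in the *Akr1c18*-high cortex (84.1 to 164), 105 in chromaffin-like cells (67.6 to 162) and 3.57 in endothelial-like cells (0.956 to 9.4). The source of these UMIs was not tested, and the annotated span of *Cx3cr1* covers other genes.

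**Figure D3:**
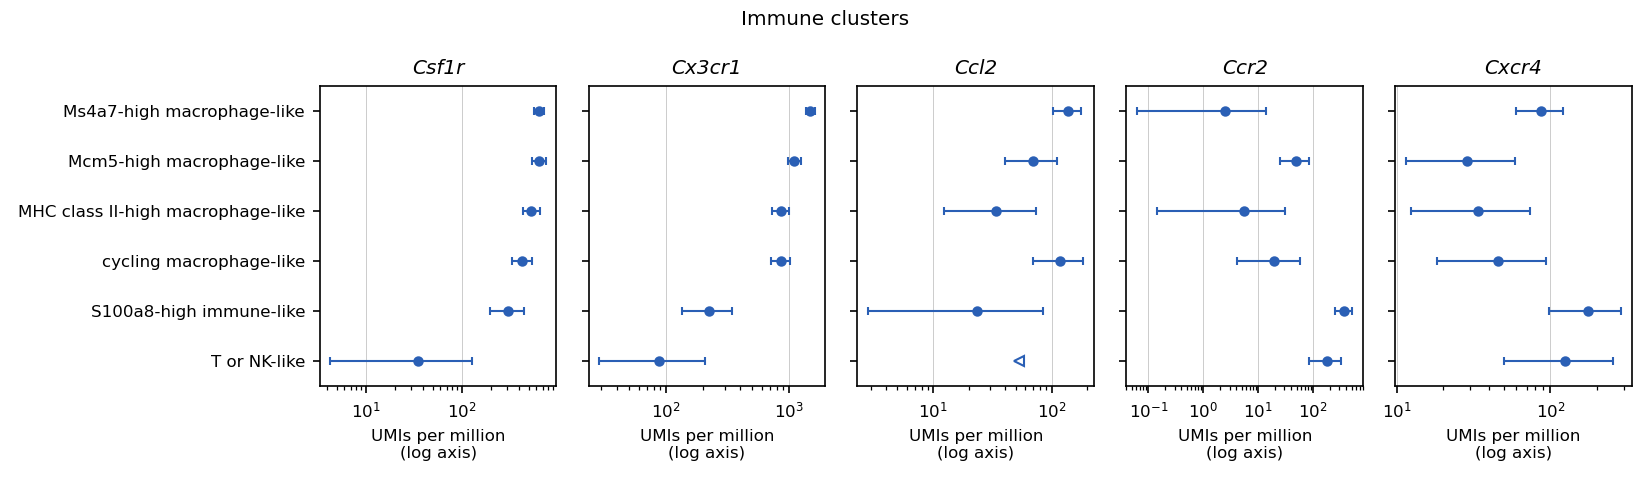
Levels of *Csf1r*, *Cx3cr1*, *Ccl2*, *Ccr2* and *Cxcr4* in 6 immune clusters, in CPM on log axes that differ between panels, with exact 95% Poisson intervals; the open triangle marks the limit that 0 UMIs allow. *Ccr2* is at 363 in the *S100a8*-high and 177 in the T or NK-like cluster and at 48.8 or below in the 4 macrophage-like clusters, the reverse of *Cx3cr1*.

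*Ccl2*, the chemoattractant of monocytes, lay mostly in macrophage-like cells among the named classes. Macrophage-like cells held 96 of its 113 UMIs (85.0%) at 97.7 CPM (79.1 to 119), against 0.397 CPM in the other cells, a ratio of 246 (146 to 440), and 69.7-fold the endothelial level (34.0 to 166). A UMI was found in 71 of the 515 macrophage-like cells (13.8%) and in 0.135% of cortex-like cells at a median depth of 5348 UMIs. No *Ccl2* UMI was found in the fibroblast-like cells, whose few UMIs allow up to 49.3 CPM, or in the chromaffin-like cells, which allow up to 0.312 CPM.

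Within the macrophages *Ccl2* was 4.02-fold higher in the *Ms4a7*-high cluster (55 UMIs, 136 CPM) than in the MHC class II-high cluster (6 UMIs, 33.7 CPM; 1.73 to 11.4) and 1.96-fold higher than in the *Mcm5*-high cluster (69.2 CPM; 1.12 to 3.6). It was not separated from the cycling cluster (117 CPM; ratio 1.16, 0.668 to 2.09). Of 11 immediate-early genes, *Ier3* (587 CPM), *Atf3* (368 CPM) and *Zfp36* (147 CPM) passed the 4-fold limit in macrophage-like cells, against 2.4% of all genes. The abundant *Fos* (1964 CPM), *Jun* (1592 CPM) and *Egr1* (524 CPM) did not. In other immune-like cells *Atf3* and *Dusp1* passed, against 2.49% of all genes. The sum of the 11 genes was also highest among macrophages in the *Ms4a7*-high cluster, at 9868 CPM, against 4796 to 5454 CPM in the other macrophage-like clusters. Within that cluster it stood at 10882 CPM in the 41 cells with *Ccl2* and 9637 CPM in the 194 cells without it, at median depths of 1739 and 1563 UMIs. The part of the 37 °C digestion in the *Ccl2* level was not tested.

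The receptor *Ccr2* had its highest level in other cells than its ligand, with some UMIs in macrophage-like cells as well. The other immune-like cells held 41 of 66 UMIs (62.1%) at 289 CPM (207 to 392), and the *S100a8*-high cluster alone 31 UMIs at 363 CPM (246 to 515), 21.0-fold the macrophage-like level (17.3 CPM; 11.2 to 40.4). The T or NK-like cluster stood at 177 CPM from 10 UMIs and was not separated from the *S100a8*-high cluster (ratio 2.04, 0.977 to 4.67). Of the 17 UMIs in macrophage-like cells, 12 lay in the *Mcm5*-high cluster (48.8 CPM, 25.2 to 85.3) and 1 in the *Ms4a7*-high cluster (2.47 CPM), a ratio of 19.8 (2.93 to 847). No *Ccr2* UMI was found in chromaffin-like, transitioning-like, sustentacular-like or fibroblast-like cells.

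*Ccr2* and *Cx3cr1* were set side by side cell by cell, because blood-derived and resident macrophages are usually told apart by them. In macrophage-like cells *Ccr2* was found in 12 of 402 cells with *Cx3cr1* (2.99%) and 3 of 113 without it (2.65%). In the *S100a8*-high cluster it was found in 3 of 12 cells with *Cx3cr1* (25%) and in 35.6% of those without. With so few positive cells no difference could be seen in either group.

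Of 16 other CC chemokines, 7 passed the 4-fold limit in macrophage-like cells, against 2.4% of all genes. *Ccl2* was not the strongest of the family there in UMIs. *Ccl4* had 715 UMIs (727 CPM), *Ccl3* 609 (620 CPM), both attractants of immune cells, and *Ccl6* 336 (342 CPM). *Ccl12*, a close relative of *Ccl2* that also acts through CCR2, stood at 194 CPM (20.2-fold), *Ccl7* at 171 CPM (17.6-fold), *Ccl9* at 156 CPM, and *Ccl24* passed on 47 UMIs. In the other immune-like cells 5 passed (against 2.49% of all genes), led by *Ccl5*, a T cell and NK cell chemokine, at 3052 CPM. In the fibroblast-like cells *Ccl19*, which guides T cells and dendritic cells through CCR7, stood at 1020 CPM from 62 UMIs in 33.3% of the cells, while *Ccl4* there came from 1 cell. *Ccl27a*, the CC chemokine with most UMIs over all classes, lay in chromaffin-like (107 CPM) and transitioning-like cells (93.1 CPM) and passed in no class.

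Among the other chemokine receptors, *Ccr1* (189 CPM), *Ccrl2* (170 CPM) and *Ccr3* (32.6 CPM) passed in macrophage-like cells. In the other immune-like cells 5 of 12 passed (against 2.49% of all genes), each on 21 UMIs or fewer: *Ccrl2*, *Ccr7*, *Ccr1*, *Cxcr6* and *Cxcr3*. None passed in the other 6 classes.

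*Cxcl12* was a stromal and glial transcript. The 45 fibroblast-like cells held 34 of its 117 UMIs (29.1%) in 19 cells (42.2%), at 559 CPM (387 to 781). Sustentacular-like cells held 23 UMIs in 22 of 179 cells (99.5 CPM, 63.1 to 149), 5.62-fold below the fibroblast-like cells (3.21 to 9.99), and 46.2-fold above all other named cells (27.9 to 73.5). Transitioning-like cells held 31 UMIs at 12.2 CPM, 8.14-fold below sustentacular-like cells (4.53 to 14.4) and 23.5-fold above chromaffin-like cells, which had 5 UMIs (0.52 CPM; 9.07 to 77.5). The steps from sustentacular-like through transitioning-like to chromaffin-like cells were thus the same in direction as those of *Il34*. The same limit of naming and depth holds for both genes. A *Cxcl12* UMI was found in 26 of the 414 transitioning-like cells.

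Because the fibroblast-like cells had the highest *Cxcl12* level, fibroblast markers were examined in the sustentacular-like cells. The collagen genes were present (*Col1a1* at 407 CPM, against 1201 CPM in fibroblast-like cells), and 4 of the 7 fibroblast markers had UMIs, with a summed level of 2211 CPM against 6940 CPM. The other 3 markers, *Dcn*, *Lum* and *Pdgfra*, were at 0 in sustentacular-like cells, where *Dcn* alone stood at 1793 CPM in the fibroblast-like cells. Markers of mural (vessel wall) cells were also found in the fibroblast-like class. Among them were *Tagln* (2122 CPM, 55.6% of cells), *Acta2* (592 CPM, 22.2%) and *Des* (247 CPM, 26.7%). The part of mural cells in the *Cxcl12*, *Il34* and *Cx3cl1* levels of this class was not tested.

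Endothelial-like cells, a known source of CXCL12 in other organs, had 3 *Cxcl12* UMIs in 2150 cells (0.525 CPM, 0.108 to 1.54), 189-fold below the sustentacular-like cells (57.2 to 986). In the cortex 17 of 21 UMIs lay in the *Akr1c18*-high cluster (1.63 CPM) and none in the *Cyp11b1*-high cluster, a ratio with a lower limit of 2.31. The immune classes had no *Cxcl12* UMI, which allows up to 3.05 CPM in macrophage-like and 21.1 CPM in other immune-like cells.

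*Cxcr4*, the signalling receptor of CXCL12, was found in immune cells at the highest level and in the cortex in the greatest number. The *S100a8*-high and T or NK-like clusters stood at 175 CPM (98.2 to 289) and 124 CPM (49.9 to 256), not separated by their intervals, and macrophage-like cells at 56.0 CPM (42.2 to 72.8), 3.14-fold below the *S100a8*-high cluster (1.64 to 5.63). Among macrophages the *Ms4a7*-high cluster was 2.56-fold above the MHC class II-high cluster (86.3 against 33.7 CPM; 1.07 to 7.45).

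Cortex-like cells held 174 of the 277 *Cxcr4* UMIs (62.8%), nearly all of them outside the *Akr1c18*-high cluster. The *Wnt4*-high cortex had 82 UMIs (16.9 CPM, 13.5 to 21.0) and the *Cyp11b1*-high cortex 72 UMIs (12.3 CPM, 9.66 to 15.6), which were not separated (1.37, 0.986 to 1.91). The *Akr1c18*-high cortex, the largest named cluster, had 5 UMIs (0.479 CPM), 35.3-fold below the *Wnt4*-high (14.5 to 112) and 25.8-fold below the *Cyp11b1*-high cortex (10.5 to 81.8). In the *Mgp*-high endothelial cluster *Cxcr4* stood at 18.1 CPM from 7 UMIs, 8.95-fold above the main endothelial cluster (2.68 to 29.9). All 8 T cell and NK cell markers had UMIs in that endothelial cluster, at a summed 578 CPM against 1.74 CPM in the main endothelial and 8212 CPM in the T or NK-like cluster, and their part in its *Cxcr4* level was not tested.

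*Ackr3*, the scavenging receptor of CXCL12, was found in cortex and endothelium, and none of its UMIs in the immune classes. Cortex-like cells held 357 of its 408 UMIs (87.5%) at 14.5 CPM (13.1 to 16.1) and endothelial-like cells 49 (12%) at 8.58 CPM, a ratio of 1.69 (1.25 to 2.33). Within the cortex *Ackr3* was highest in the *Cyp11b1*-high cluster, with 182 UMIs in 17.5% of cells (31.2 CPM, 26.8 to 36.1). That was 2.65-fold above the *Wnt4*-high cortex (11.8 CPM; 1.96 to 3.64) and 3.5-fold above the *Akr1c18*-high cortex (8.91 CPM; 2.71 to 4.55), and the latter clusters were not separated (1.32, 0.932 to 1.85).

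In the endothelium *Ackr3* was concentrated in the *Mgp*-high cluster, with 20 UMIs in 218 cells at 51.8 CPM (31.6 to 80.0), 9.94-fold above the main endothelial cluster (4.99 to 19.9) and not separated from the *Cyp11b1*-high cortex (1.66, 0.99 to 2.64). The venous markers *Nr2f2* and *Lrg1* stood at 953 and 451 CPM in this cluster, and were also present in the main (796 and 290 CPM) and cycling endothelial clusters (672 and 223 CPM). The T or NK-like cells, whose markers were seen in it, had no *Ackr3* UMI, which allows up to 53.2 CPM there and so does not separate them from the *Mgp*-high cluster. No *Ackr3* UMI was found in the macrophage-like cells (up to 3.05 CPM allowed) or in the sustentacular-like, transitioning-like or fibroblast-like cells. The last 3 are the classes with the highest *Cxcl12* levels, and they allow up to 13.0, 1.18 and 49.3 CPM, respectively. The limits of the sustentacular-like and fibroblast-like cells lie above the endothelial-like level of 8.58 CPM, so these classes are not separated from the endothelial-like cells. The transitioning-like limit lies below that level.

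**Figure D4:**
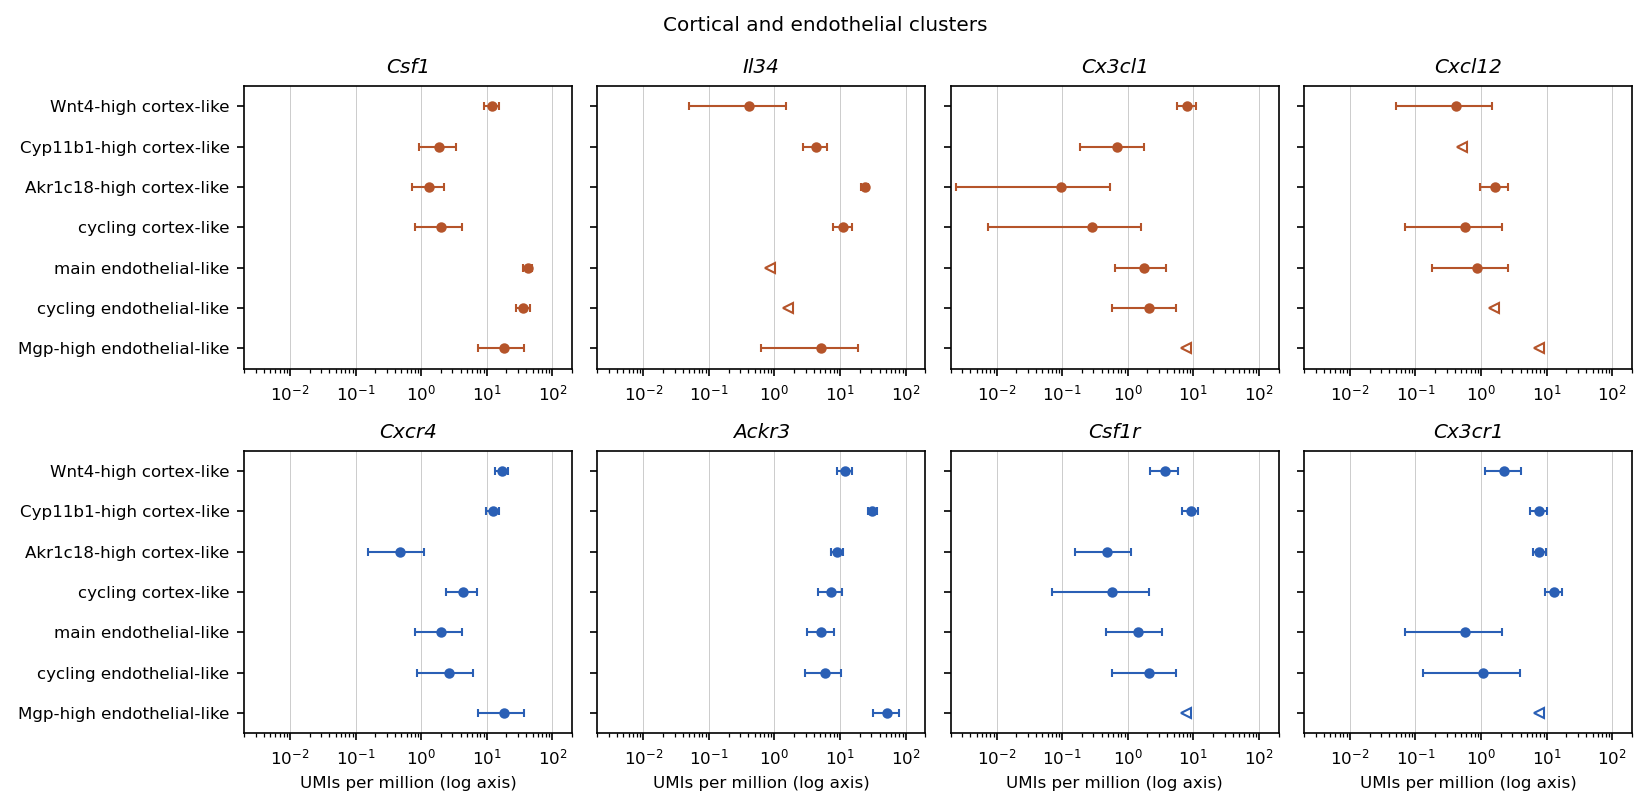
Levels of 8 of the genes in 4 cortical and 3 endothelial clusters, in CPM on a log axis, with exact 95% Poisson intervals; open triangles mark the limit that 0 UMIs allow. *Il34* is at 0.413 in the *Wnt4*-high and 23.8 in the *Akr1c18*-high cortex, *Cxcr4* (16.9 and 0.479) and *Csf1* (12 and 1.34) stand the other way round, and *Ackr3* is highest in the *Mgp*-high endothelial cluster (51.8) and the *Cyp11b1*-high cortex (31.2).

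In the 3 classes highest in *Cxcl12*, only *Cxcl2* of a fixed list of other CXC chemokines passed the 4-fold limit. It did so in fibroblast-like cells, against 2.52% of all genes. Of 11 genes, 5 passed in macrophage-like cells, against 2.4% of all genes. They were led by *Pf4* (platelet factor 4, 1917 CPM), *Cxcl2* (1520 CPM), a neutrophil attractant, and *Cxcl16* (585 CPM), and included *Cxcl1* (75.3 CPM) and *Cxcl9* (38.7 CPM). *Cxcl14* was found mainly in the medullary neuroendocrine cells, with 3190 UMIs in 65.0% of chromaffin-like cells (332 CPM, 9.02-fold) and 315 CPM in transitioning-like cells, against 1.83 CPM in cortex-like cells. *Pf4* (445 CPM) and *Cxcl10* (51.3 CPM), which is induced by interferons, passed in endothelial-like cells. None of the 3 other atypical receptors passed in any class, and *Ackr2*, a scavenger of CC chemokines, was the most frequent with 43 UMIs in endothelial-like cells. *Ackr1* had 7 UMIs each in chromaffin-like and transitioning-like cells, and *Ackr4* 2 in endothelial-like cells.

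MIF, an inhibitor of macrophage migration, can also signal through CXCR4 with CD74 as its surface receptor. *Mif* was broadly present, from 162 CPM in endothelial-like to 357 CPM in transitioning-like cells among the larger classes, and its relative *Ddt* stood at 240 CPM in cortex-like cells. *Cd74* was at 6392 CPM in macrophage-like cells (195-fold) and 3172 CPM in other immune-like cells, and *Cd44*, its partner in signalling, passed in other immune-like cells (155 CPM). Of 6 genes of chemokine processing and scaffolding, *Adam10*, the protease that sheds fractalkine, passed in endothelial-like cells (206 CPM, 4.12-fold) with *Hspg2* (288 CPM). *Arrb2*, which acts downstream of ACKR3, passed in macrophage-like cells (278 CPM), and *Adam17* passed in none, with 125 CPM in macrophage-like cells.

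**Figure D5:**
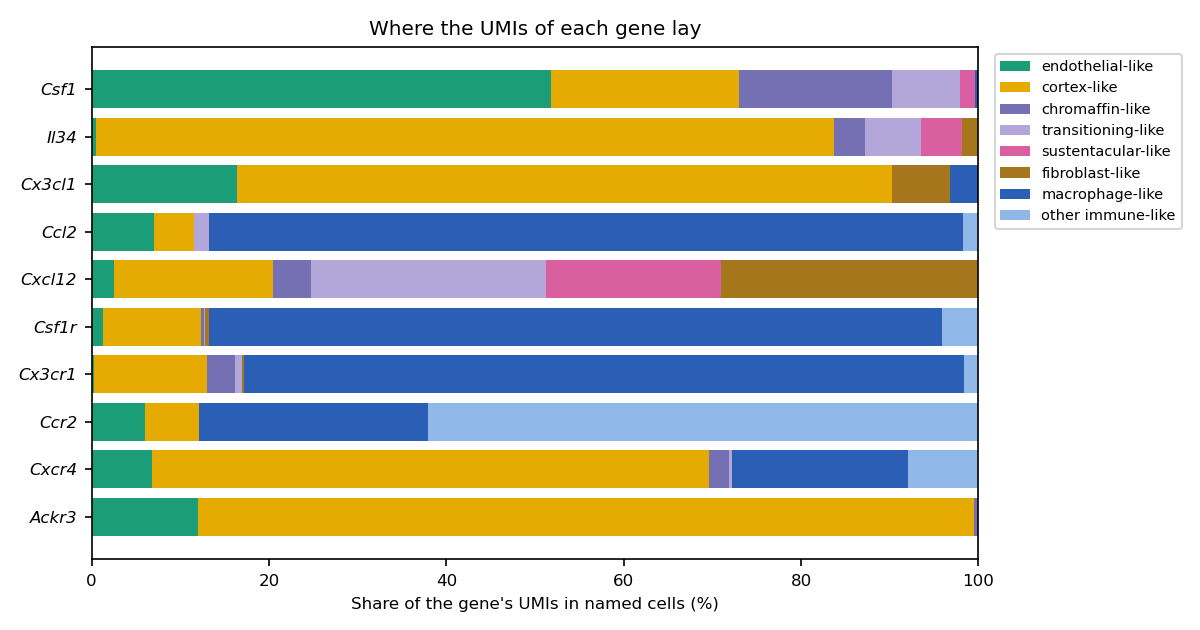
Share of the UMIs of each gene in named cells that lay in each of the 8 classes, in percent. Macrophage-like cells hold most UMIs of *Ccl2* (85.0%), *Csf1r* (82.7%) and *Cx3cr1* (81.2%), while *Csf1* lies mainly in endothelial-like (51.8%) and *Il34* (83.2%) and *Ackr3* (87.5%) in cortex-like cells. The shares depend on how many cells of each class were recovered from this dissection.

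The number of UMIs and the level in CPM gave different leading classes for 3 genes. Cortex-like cells, the most numerous class and among the deepest, held most of the UMIs of *Il34*, *Cx3cl1* and *Cxcr4*. The levels were highest in sustentacular-like and fibroblast-like cells for *Il34*, in fibroblast-like cells for *Cx3cl1* and in the *S100a8*-high cluster for *Cxcr4*. For *Cxcl12* the fibroblast-like cells led on both measures, with 29.1% of UMIs at 559 CPM, although the transitioning-like cells held nearly as many (26.5%) at 12.2 CPM. The small classes rest on few cells: 1 of the 45 fibroblast-like cells carried all 3 *Csf1r* and all 3 *Cx3cr1* UMIs of the class together with *C1qa*, and 9 of the 11 macrophage markers had UMIs in the class.

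The genes whose levels were most like those of each gene over the 15 clusters of all cells with at least 50 cells were listed with Pearson's r of log2(CPM + 10), as a description across clusters of 1 library that share depth and free RNA. For *Csf1r* they were *Ccl12* and *Spi1* (both 0.986) and *Cd86* (0.984), for *Cx3cr1* *Ccl12* (0.982), *Ccl3* (0.978) and *Ms4a7* (0.977), and for *Ccl2* *Ncf1* and *Arhgap30* (both 0.998) and *Fcgr2b* (0.997). For *Cxcl12* they were *Col1a1* (0.98), *Myl9* (0.97) and *Col1a2* (0.967). *Csf1* was nearest to *Slc44a2* (0.979), *Mxd4* (0.974) and *Rasal2* (0.973), and *Il34* to *Prss23* (0.947), *Taf13* (0.931) and *Matn2* (0.912). For *Cxcr4* they were *Slco2b1* (0.955), *Cytip* (0.954) and *Lacc1* (0.937), and for *Ackr3* *Bloc1s4* (0.913), *Lbx2* (0.903) and *Srek1ip1* (0.888). *Cx3cl1* and *Ccr2* had under 100 UMIs in these clusters and were not compared.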

How the data were processed

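The authors deposited raw UMI counts, not normalized, in 1 matrix of filtered barcodes. Per the submitters' processing notes they were made with Cell Ranger 4.0.0 on mm10. Gene positions are from GENCODE vM21 (GRCm38). Cells with 500 to 5000 genes and at most 20% mitochondrial UMIs were clustered with Seurat 5.3.0 (R 4.3.3, SeuratObject 5.2.0, Matrix 1.6.5), with 2000 variable features, 10 principal components and a resolution of 0.4, and lineages were clustered again with the same settings. Naming a cluster required 3 or more markers of 1 list, each seen in 50% of the cells or more (25% for sustentacular and cycling). Cortical, endothelial and immune clusters that met no finer list are called by a leading gene. Doublets were scored with Scrublet in scanpy 1.11.5 at an expected 8%, which called 669 cells (6.6%), of which most lay in the 831 cells of mixed clusters (65.5% doublets). The others were kept, and leaving them out was 1 of the alternatives.

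Levels are UMIs summed over a class per 1000000. With 1 library no test was run, and no replicate could be left out. Intervals are exact at 95%, and a count of 0 is given as 3 counts of the total. A list gene passes at a fold of at least 4 in CPM plus 10 among genes detected in 3 cells or more, and the fold is on that scale. The shares of all genes given for the 10 members hold for every list in the same class. Of each list the 3 genes with most UMIs and those that passed were named, with up to 4 per class, and some further genes that passed were named after their values were seen. Some list genes are not reported here. Genes with several rows (*Ccl19*, *Ccl21a*, *Ccl27a*) were summed. The members, lists and comparisons were chosen with earlier results of these data known. The fold was tested on simulated counts. Further steps ran in Python 3.11.15 (pandas 2.3.3, scipy 1.17.1, numpy 2.4.6), and matplotlib 3.10.9 drew the figures.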

Additional observations from a re-analysis of the deposited data

Results flagged for a closer look

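UMIs of all 10 genes were found in data that the comparisons did not use, the 1075 barcodes that failed the filter on genes or mitochondrial UMIs. They numbered 95 for *Cx3cr1*, 58 for *Csf1r*, 33 for *Cxcr4*, 28 for *Cxcl12*, 23 for *Ackr3*, 19 for *Csf1* and 19 for *Il34*, 9 for *Cx3cl1*, 5 for *Ccl2* and 4 for *Ccr2*. Each exceeds the limit of 3 counts. These barcodes have no class here. The comparisons also left out the 831 cells of clusters with mixed markers, which held 314 UMIs of *Cx3cr1*, 150 of *Csf1r*, 77 of *Il34*, 52 of *Csf1*, 47 of *Ackr3*, 43 of *Cxcl12*, 25 of *Cxcr4*, 22 of *Ccl2*, 16 of *Ccr2* and 5 of *Cx3cl1*.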

How the results depend on the processing

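The ratio of the leading class to all other cells was recomputed under 8 alternatives and 2 more chosen after seeing the data. The leading class was held fixed in the 8 and could change only in the 2 added. Of the recomputed ratios 79 moved by less than their interval, 15 moved further and 2 fell below 1. The 79 include ratios whose leading class changed, such as *Ackr3* in the *Mgp*-high endothelial cluster (5.8) and *Il34* in fibroblast-like cells (13.7). Both of the last were *Cx3cl1* in macrophage-like cells, whose level rests on 2 UMIs, at a resolution of 0.8 (0.916) and with the mean over cells of each cell's CPM (0.808). With resolution 0.8 *Csf1* in endothelial-like cells was at 8.8. A filter of 1000 genes or more, with no upper limit on genes, and up to 10% mitochondrial UMIs put *Csf1r* at 293. It left no sustentacular-like or other immune-like class of at least 50 cells, so that *Il34*, *Ccr2*, *Cxcl12* and *Cxcr4* had no value. Naming each cell from its own markers gave 116 for *Csf1r*, 102 for *Cx3cr1*, 130 for *Ccl2* and 171 for *Ccr2*. The mean over cells gave 148 for *Csf1r*, 22.8 for *Cxcl12* and 3.4 for *Ackr3*. Of the added alternatives, the 19 clusters in place of the classes gave 63.5 for *Csf1r*, 78.7 for *Cx3cr1* and 102 for *Ccl2* in the *Ms4a7*-high cluster, where the other macrophages count among the rest, and 14.3 for *Cx3cl1* in the *Wnt4*-high cortex. With classes of under 50 cells allowed, the fibroblast-like cells led for *Cx3cl1* (50.5), *Il34* (13.7) and *Cxcl12* (295). The cause of the other shifts was not tested. With a pseudocount of 1 CPM the other chemokine receptors that passed in other immune-like cells rose from 5 to 11, and with only genes of at least 100 UMIs fell to 2. No paired analysis was possible because there is 1 library. Depth limits the 97 other immune-like and 45 fibroblast-like cells most, where 0 UMIs allow up to 21.1 and 49.3 CPM.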
